A study of Mus musculus with 5 samples.

Results

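The genes described here are the c-Jun N-terminal kinases (JNK) Mapk8 and Mapk9, the p38 kinase Mapk14, the kinases Map2k4 and Map2k7 that switch on JNK, and the phosphatases Dusp1, Dusp2, Dusp5, Dusp6 and Dusp16 in mouse peritoneal macrophages with and without c-Jun. The members were chosen by gene symbol: every probe whose transcript accession mapped to 1 of these 10 symbols was taken, which gave 10 of the 21154 symbols and 16 of the 55681 probes on the array. Arrays of 1 colour measured RNA from 3 wild-type mice, numbered 5, 11 and 14, and from 2 mice with c-Jun deleted, numbered 1 and 9. All mice were 8 weeks old, of a mixed 129/C57Bl6 background and of either sex, and the wild-type mice were littermates. The c-Jun-deleted mice had the genotype cJunfl/fl LysMCre-/+ (titles: c-JunΔLysM), that is, floxed Jun alleles and a Cre recombinase placed in Lyz2, which is active in myeloid cells, so that with this Cre lymphoid and stromal cells of the peritoneum keep c-Jun. Their source names give Mx, another Cre line, in place of LysM, and the labels do not settle which is right. Cells were washed from the peritoneal cavity and plated overnight without a stimulus named in the labels, and RNA was taken from those that adhered.

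Mitogen-activated protein kinases (MAPK) work in relays. A MAP3K phosphorylates a MAP2K, and the MAP2K phosphorylates the MAPK on a threonine and a tyrosine. JNK phosphorylates the amino-terminal part of c-Jun and raises its activity as a transcription factor, while p38 in macrophages controls the making and the stability of cytokine messages. Dual-specificity phosphatases (DUSP) remove both phosphates from the MAPK, and many are made in response to the same signals, so that they close a feedback loop. c-Jun, alone or with partners of the Fos and ATF families, binds the AP-1 site and the cyclic AMP response element TGACGTCA. The AP-1 site is TGACTCA or TGAGTCA, and the wider pattern TGANTCA, with N any base, was searched here. RNA levels say nothing of the phosphorylation of these kinases or of c-Jun.

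The promoters of Dusp1, Dusp2 and Map2k4 are shown because these were the members whose c-Jun-deleted values lay wholly outside the wild-type range. Each covers 250 bases before to 50 bases after the start of the gene, 5′ to 3′ on the strand of the gene, from RefSeq on GRCm38.p6. All 10 genes had an entry, with 14 promoters in all. Capitals mark TGACGTCA or its shorter part TGACG on either strand, so CGTCA is TGACG read on the opposite strand. The pattern TGANTCA was searched too and is in none of the 3 sequences.
Dusp1, chr17:26508423-26508722, minus strand: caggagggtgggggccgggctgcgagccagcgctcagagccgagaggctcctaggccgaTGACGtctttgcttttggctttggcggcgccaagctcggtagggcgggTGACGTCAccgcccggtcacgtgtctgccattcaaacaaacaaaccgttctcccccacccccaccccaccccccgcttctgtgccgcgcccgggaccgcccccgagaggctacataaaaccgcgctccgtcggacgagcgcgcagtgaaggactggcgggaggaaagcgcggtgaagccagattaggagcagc
Dusp2, chr2:127335909-127336208, plus strand: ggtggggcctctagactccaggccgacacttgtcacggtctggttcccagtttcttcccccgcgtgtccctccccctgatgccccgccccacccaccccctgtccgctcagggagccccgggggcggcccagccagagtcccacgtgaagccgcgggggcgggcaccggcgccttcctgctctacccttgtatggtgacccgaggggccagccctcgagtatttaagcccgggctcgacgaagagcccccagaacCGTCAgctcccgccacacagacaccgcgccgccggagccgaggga
Map2k4, chr11:65788310-65788609, minus strand: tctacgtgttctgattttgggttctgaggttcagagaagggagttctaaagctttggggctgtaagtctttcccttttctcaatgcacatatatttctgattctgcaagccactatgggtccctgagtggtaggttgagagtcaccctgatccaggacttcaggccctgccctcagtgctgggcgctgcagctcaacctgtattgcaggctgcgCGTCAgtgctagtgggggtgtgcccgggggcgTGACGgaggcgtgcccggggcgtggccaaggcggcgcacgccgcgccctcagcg

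The Dusp1 promoter holds TGACGTCA 143 bases before the start, and TGACG alone 191 bases before it. That of Dusp2 has TGACG on the opposite strand at base 6 after the start. In Map2k4 the TGACG matches are 36 bases before the start on the opposite strand and 4 bases before it on the gene's own strand. A second Map2k4 promoter in the table has none of these motifs. Over both strands, TGACGTCA was in 1 of the 14 member promoters, against 1.79% of all 32851 promoters of this length. TGACG, which every TGACGTCA contains, was in 7 of 14 (Dusp1, Dusp2, Dusp5, Dusp16, Map2k4, Mapk8 and Mapk9), against 20.8% of all promoters. The wider pattern TGANTCA was in 1 of 14, as TGATTCA 92 bases before the start of a second promoter of Map2k7, against 7.81% of all. That match is neither TGACTCA nor TGAGTCA. These matches describe the sequence only, and binding was not measured.

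The share of probes well above background was 52.1% to 59.9% over the arrays, no probe was saturated, and precision is limited by there being only 5 arrays. Wild-type 5 and c-Jun-deleted 1 shared a slide, and the other 3 arrays shared the other slide and scan. Wild-type 11 stood apart in Xist, the RNA of the inactive X chromosome, at a log2 level of -4.53, against -0.04 to 0.74 on the other arrays, so sex was not balanced between groups. Lyz2, the gene that carries LysM-Cre, was at 4.46 on c-Jun-deleted 1 and between 8.52 and 9.18 on the other 4 arrays. The 12 macrophage markers were well above background on all 5 arrays. Jun itself, by a probe that may lie inside or outside the deleted part, was at 3.21, 3.75 and 3.17 in wild-type cells and 2.76 and 2.71 in c-Jun-deleted cells (log2 difference -0.64, SE 0.23, Benjamini-Hochberg adjusted p = 0.391). Jun RNA was thus still detected on both c-Jun-deleted arrays, and its level does not check the genotype.

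Each level is the log2 of a probe's signal relative to the 75th percentile of its array, and each difference is c-Jun-deleted minus wild-type. Levels are read within a probe, never from one gene to another. None of the 10 members passed the limma test at a Benjamini-Hochberg adjusted p of 0.05, and their adjusted p-values ran from 0.324 to 0.867. Of all 27938 genes tested, 0% passed it, so this count sets the members apart from nothing. At an unadjusted p below 0.05, 1 member, Dusp2, passed, against 12.2% of all genes. The c-Jun-deleted values lay above all wild-type values for 1 member (13.3% of all genes) and below them for 2 members, Dusp1 and Map2k4 (20.2% of all genes), together 3 of 10 against 33.5%. With the brightest probe for each gene, the members' share outside the wild-type range was therefore near that of all genes. With the mean over a gene's probes it was not, at 7 of 10 members beside 9427 of 27938 genes. The counts by brightest probe changed when an array was left out. They were 8 members and 14979 genes without wild-type 11, and 7 members and 17014 genes without c-Jun-deleted 1. Without c-Jun-deleted 9 they were 3 members and 14178 genes. Differences were negative for 8 of the 10 members with a median of -0.27, beside 17142 of 27938 genes and a median of -0.09 over all genes. When arrays were centred on their median instead, the median of all genes moved to 0.12 and the members split into 6 lower and 4 higher.

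**Figure D1:**
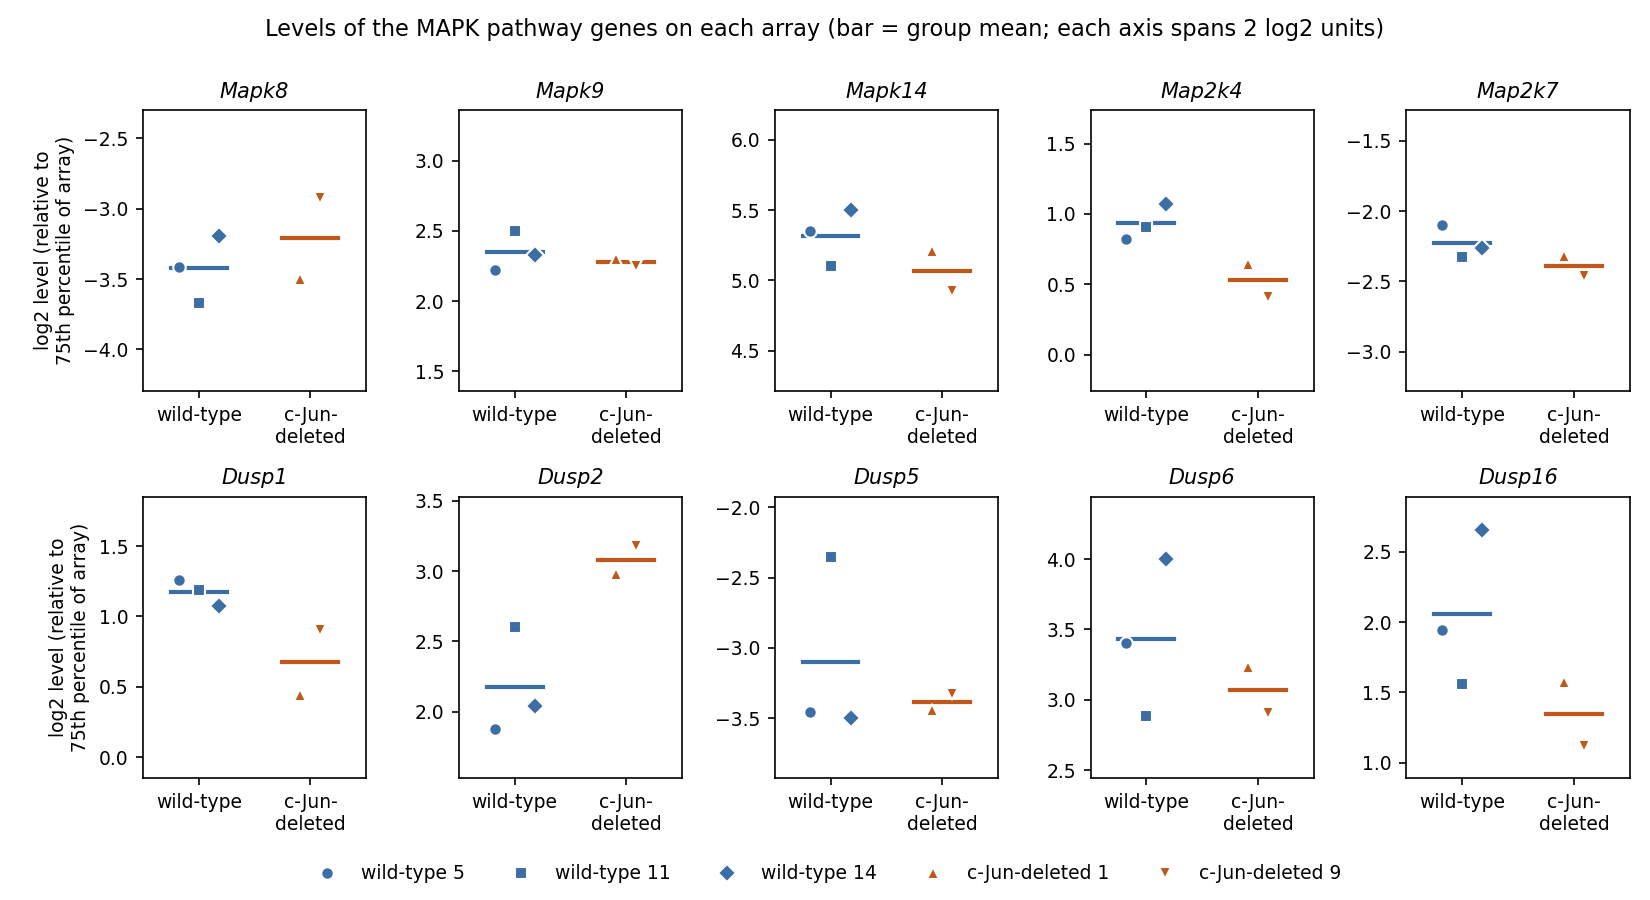
Log2 level of each of the 10 members relative to its array's 75th percentile (vertical axis, 1 panel per gene, each spanning 2 log2 units), for the 3 wild-type and 2 c-Jun-deleted arrays; points are arrays and lines are group means. Dusp2 is the member with both c-Jun-deleted points above the wild-type points, at 2.98 and 3.18 against 1.88 to 2.60, while both lie below for Dusp1 and Map2k4.

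Among the JNK genes, Mapk8 encodes JNK1, a kinase of most tissues. Its brightest probe read -3.41, -3.67 and -3.19 in wild-type cells and -3.50 and -2.93 in c-Jun-deleted cells. The groups overlapped, with c-Jun-deleted 9 highest. The difference was 0.21 (SE 0.25, 95% confidence interval -0.45 to 0.88, adjusted p = 0.746), and its sign depended on the slide: -0.09 within slide 1 and 0.50 within slide 2. The probe was dim, with signals of 35.8 to 57.5 where the lowest signal called well above background was 10.7 to 18.2, and after normexp background correction the difference was -0.03.

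Mapk8 had 2 further probes on the same transcript, and they differed from the first in sign. One, A_55_P2020410, read -3.64, -3.73 and -3.87 in wild-type cells and -4.40 and -3.83 in c-Jun-deleted cells, with a difference of -0.36 (SE 0.22). The other, A_55_P1973299, read -3.34, -3.13 and -3.87 in wild-type cells and -4.76 and -4.52 in c-Jun-deleted cells. On that probe both c-Jun-deleted arrays lay below every wild-type array, by -1.19 in the mean (SE 0.27, unadjusted p = 0.00726, adjusted p = 0.255 over all probes). This was the lowest unadjusted p of the 16 member probes. The scanner signals behind it were 47.0, 52.2 and 32.9 against 22.0 and 19.1, and the spot was well above background on 1 of the 2 c-Jun-deleted arrays. With normexp the same difference was -0.52. The authors' deposited table gives -1.19 for this probe, the only member probe it lists. After normexp all 3 Mapk8 probes were negative, at -0.03, -0.22 and -0.52. With quantile normalization the first stayed positive, at 0.38. As the sign differed by probe and by setting, a Mapk8 difference cannot be assigned a direction from these arrays.

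Mapk9 encodes JNK2, the other widely expressed JNK. It was at 2.22, 2.50 and 2.33 in wild-type cells and at 2.30 and 2.25 in c-Jun-deleted cells. The c-Jun-deleted values lay inside the wild-type range, and the difference of -0.07 (SE 0.15, 95% interval -0.47 to 0.33, adjusted p = 0.867) was the smallest of the 10. A second probe, A_52_P27244, annotated to another transcript (NM_207692 rather than NM_001163672), read 0.28, 0.67 and 0.28 against 0.00 and -0.02. Here both c-Jun-deleted arrays were lowest, with a difference of -0.42 (SE 0.18, adjusted p = 0.435).

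Mapk14 encodes p38 alpha, the main p38 kinase of macrophages. It was at 5.35, 5.10 and 5.50 in wild-type cells and at 5.21 and 4.92 in c-Jun-deleted cells. The groups overlapped through wild-type 11, and the difference was -0.25 (SE 0.19, 95% interval -0.76 to 0.25, adjusted p = 0.612). Its second probe read -0.06, -0.14 and -0.14 against -0.31 and -0.36, a small step of -0.22 (SE 0.13, adjusted p = 0.519) with no overlap. Both probes moved close to 0 under median centring, at -0.04 and -0.01.

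Map2k4 encodes MKK4, which phosphorylates JNK and can also act on p38. Its level was 0.82, 0.91 and 1.07 in wild-type macrophages. In c-Jun-deleted cells it was 0.64 and 0.41. Both values lay below the wild-type range, 1.33-fold lower in the mean (log2 difference -0.41, SE 0.16, 95% interval -0.83 to 0.02, adjusted p = 0.420). The difference was -0.18 within slide 1 and -0.58 within slide 2. Under median centring it was -0.20 and the groups overlapped. A second probe for the same transcript read -0.34, -0.24 and -0.30 against -0.39 and -0.43, again without overlap but with a difference of only -0.12 (SE 0.13), which was 0.09 under median centring.

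Map2k7 encodes MKK7, which is specific for JNK. It read -2.10, -2.33 and -2.26 in wild-type cells and -2.32 and -2.46 in c-Jun-deleted cells. Wild-type 11 fell between the c-Jun-deleted arrays, so the groups overlapped (difference -0.16, SE 0.15, 95% interval -0.55 to 0.24, adjusted p = 0.679). Under median centring the sign turned, to 0.05. Over the 5 kinases and MAP2Ks the median difference was -0.16, with 4 of 5 lower.

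**Figure D2:**
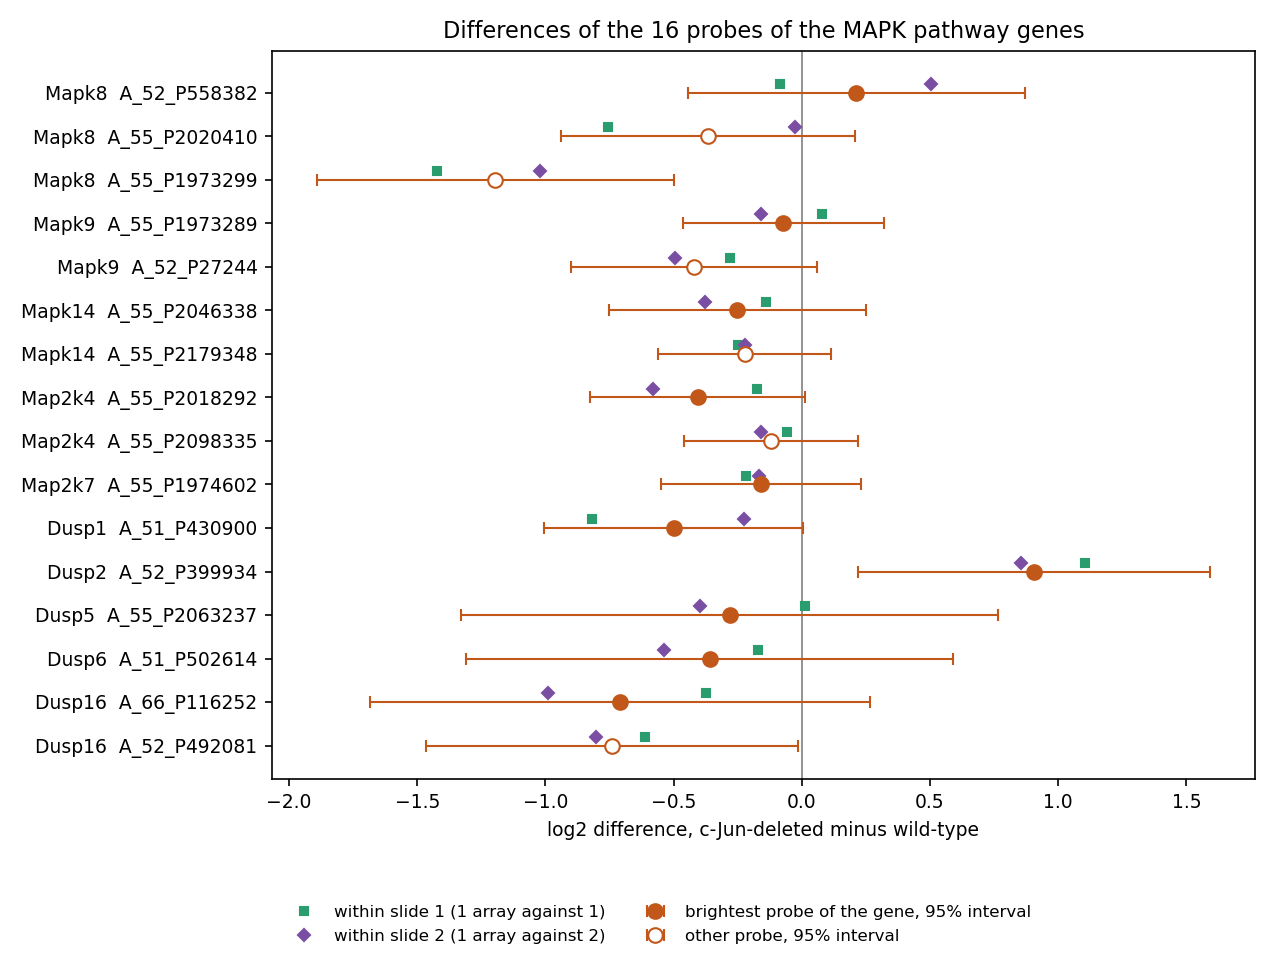
Log2 difference, c-Jun-deleted minus wild-type, of each of the 16 member probes with its 95% confidence interval (horizontal axis), grouped by gene; filled circles are the brightest probe of a gene, open circles its other probes, and squares and diamonds the differences within slide 1 and slide 2. The intervals of most probes include 0; the 3 Mapk8 probes run from 0.21 to -1.19, and the single Dusp2 probe at 0.91 is the one with an interval wholly above 0.

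Dusp2 had the largest difference among the members. It encodes PAC-1, a nuclear phosphatase induced by activation in blood cells. Its level was 1.88, 2.60 and 2.04 in wild-type cells and 2.98 and 3.18 in c-Jun-deleted cells. Both c-Jun-deleted arrays were above all 3 wild-type arrays, 1.87-fold higher in the mean (log2 difference 0.91, SE 0.27, 95% interval 0.22 to 1.60, unadjusted p = 0.0202, adjusted p = 0.324). It was 1.10 within slide 1 and 0.86 within slide 2, and stayed between 0.76 and 1.12 under all 17 alternative settings. The next highest array was wild-type 11.

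Markers of other peritoneal cells differed between the groups as well. The summed level of 12 B cell markers, relative to the 75th percentile on a linear scale, was 98.3, 77.5 and 50.9 in wild-type cells and 333 and 485 in c-Jun-deleted samples. All 12 markers lay above the wild-type range with a median log2 difference of 2.51. None of them passed the adjusted threshold (lowest adjusted p = 0.212), 10 did under median centring, all 12 had an unadjusted p below 0.05, and Pax5 on wild-type 14 was the single reading not well above background. The 10 measured markers of large peritoneal macrophages were also higher, 7 of them outside the wild-type range, with a median of 1.16 and sums of 154 to 250 against 376 and 442. Gata6, Timd4 and Selp overlapped that range, and within slide 1 they differed by -0.33, 0.51 and -1.47. Among the wild-type arrays the large peritoneal macrophage list was lowest on wild-type 11 (median deviation -0.78 from the wild-type mean). Dusp2 was highest of the wild-type arrays on that array. For T and NK cell markers the sum was 23.5, 51.9 and 18.5 in wild-type cells and 58.3 and 77.7 in c-Jun-deleted samples. That order rests on Cd2, without which the sums of the other 11 were 12.5, 42.0 and 12.8 against 24.9 and 34.2, with wild-type 11 highest. Of these 12 markers 9 were higher and 3 lower, and 2 lay above the wild-type range. The 7 measured mast cell markers were all higher, with a median of 0.49 and none outside the range. All 10 measured mesothelial and stromal markers were lower, 6 of them below the range, with a median of -1.05 and sums of 4.72, 11.1 and 7.50 against 3.15 and 4.36. Normexp and quantile normalization left 9 of these 10 lower, and median centring 8. Of 7 measured granulocyte markers, 5 were lower and 2 higher (median -0.16), and under median centring 3 were lower and 4 higher. In RNA from mixed cells, a change in the number of cells of a type and a change in RNA per cell cannot be told apart. The part of these cells in the Dusp2 value was not tested.

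Dusp1 encodes MKP-1, a nuclear phosphatase that acts on p38 and JNK and limits cytokine production by macrophages. It was at 1.26, 1.19 and 1.07 in wild-type cells and at 0.44 and 0.91 in c-Jun-deleted cells. The wild-type arrays lay close together, both c-Jun-deleted arrays were below them, and c-Jun-deleted 1 was the lower. The mean was 1.41-fold lower (log2 difference -0.50, SE 0.20, 95% interval -1.01 to 0.01, adjusted p = 0.415). It was -0.82 within slide 1 and -0.22 within slide 2, and leaving out c-Jun-deleted 9 gave -0.73 where leaving out c-Jun-deleted 1 gave -0.27, so the size rests largely on c-Jun-deleted 1. The sum of the 12 macrophage markers was 1855, 1436 and 1926 in wild-type against 1174 and 1446, with 6 markers below and 2 above the wild-type range. Its low value on c-Jun-deleted 1 came from Lyz2: the sum of the other 11 was 1439, 1002 and 1347 against 1152 and 1080, and the groups overlapped. For arrays 1 and 9 of the c-Jun-deleted group, the median deviation over all 12 markers was -0.32 and -0.38. For the mesothelial and stromal list it was -1.32 and -0.72, in the same order. The markers of that list were split: Msln, Krt8, Krt18 and Krt19 read lower on array 9, the rest on array 1. On wild-type 5, 11 and 14 the median of this list deviated by -0.62, 0.81 and -0.25, and Dusp1 by 0.09, 0.02 and -0.10. The part of these cells in the Dusp1 value was not tested.

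Dusp16 encodes MKP-7, a phosphatase that prefers JNK and p38. It was at 1.95, 1.56 and 2.66 in wild-type cells and 1.57 and 1.12 in c-Jun-deleted cells. The wild-type arrays themselves spanned more than a unit, and wild-type 11 and c-Jun-deleted 1 were nearly equal. The mean was 1.63-fold lower (log2 difference -0.71, SE 0.38, 95% interval -1.69 to 0.27, adjusted p = 0.492). Without wild-type 14 the difference was -0.41, and without wild-type 11 it was -0.96. A second, dimmer probe read -2.86, -3.07 and -2.25 against -3.47 and -3.47. On it both c-Jun-deleted arrays were below every wild-type array, with a difference of -0.74 (SE 0.28, unadjusted p = 0.0467, adjusted p = 0.400), or -0.31 after normexp.

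Dusp6 encodes MKP-3, a cytoplasmic phosphatase selective for ERK. It was at 3.41, 2.88 and 4.00 in wild-type cells and at 3.23 and 2.91 in c-Jun-deleted cells. The groups overlapped, and again wild-type 14 was highest and wild-type 11 lowest of the wild-type arrays. The difference was -0.36 (SE 0.37, 95% interval -1.32 to 0.60, adjusted p = 0.699), and -0.07 without wild-type 14.

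Dusp5 encodes a nuclear phosphatase selective for ERK. Its dim probe read -3.46, -2.35 and -3.50 in wild-type cells and -3.44 and -3.33 in c-Jun-deleted cells. Wild-type 11 stood apart, and the other 4 arrays lay between -3.50 and -3.33. The difference of -0.28 (SE 0.40, 95% interval -1.34 to 0.77, adjusted p = 0.793) became 0.09 when wild-type 11 was left out. The T and NK cell markers, too, were highest among the wild-type arrays on wild-type 11, by a median log2 deviation of 1.25 from the wild-type mean, against -0.52 and -0.58 on the others. On the c-Jun-deleted arrays they deviated by 0.37 and 0.88, and Dusp5 by -0.34 and -0.22. Their part in the Dusp5 value was not tested. Over the 5 phosphatases the median difference was -0.36, with 4 of 5 lower.

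**Figure D3:**
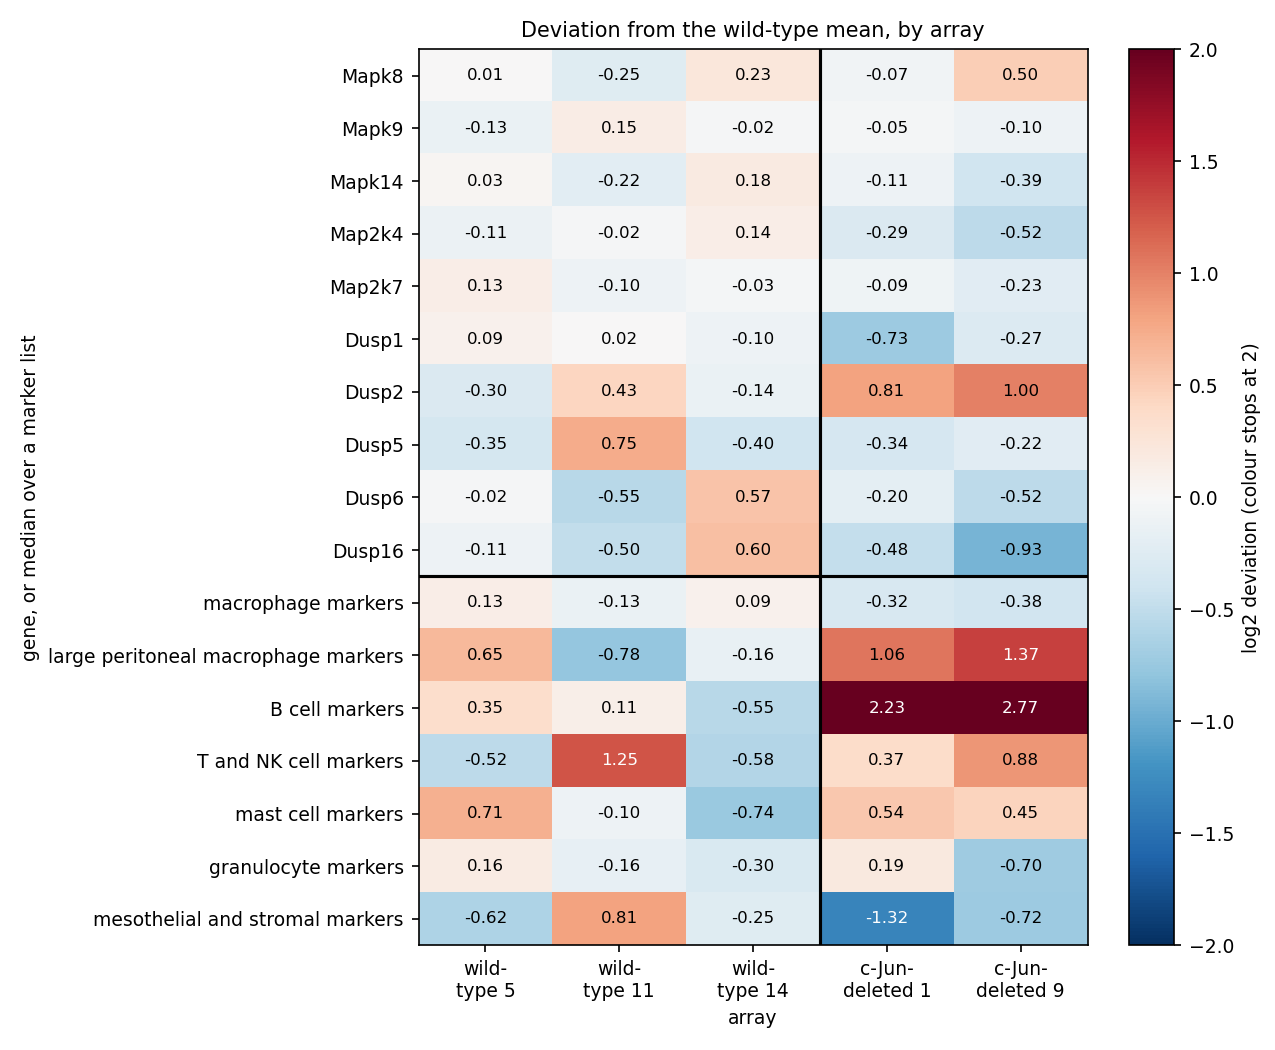
Log2 deviation of each member, and median deviation of each marker list, from its wild-type mean (rows) on each of the 5 arrays (columns); numbers are the deviations and colour stops at 2. Dusp2 and the B cell and large peritoneal macrophage lists are above the wild-type mean on both c-Jun-deleted arrays, Dusp5 stands out on wild-type 11 only, and Dusp6 and Dusp16 differ among the wild-type arrays as much as between the groups.

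Across all 16 probes, 14 had a negative and 2 a positive difference, 7 lay below and 1 above the wild-type range, and 8 overlapped it. The share outside the range, 8 of 16, stood beside 33.8% of all 32565 probes. Probes of 1 gene share their RNA and count as 1 gene, and 5 of the 10 genes had a single probe. In 4 of the 5 genes with several probes, 1 probe lay below the wild-type range and another overlapped it, the exception being Map2k4 with both probes below.

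The members whose levels varied most over the 5 arrays were Dusp16 and Dusp2. The genes closest to them in pattern were found by the root mean square difference of mean-centred log2 levels over the 5 arrays, among 12842 named genes well above background on all of them. For Dusp16 these were Elk3 (0.074), Fam162a (0.091) and Mgat4a (0.101). Elk3, an ETS family factor, was at 4.11, 3.57 and 4.87 in wild-type cells and at 3.75 and 3.32 in c-Jun-deleted cells, so it shared the high value on wild-type 14. The nearest of the other 9 members was Dusp6, at 0.181. For Dusp2 the closest were Stac2 (0.069), Dennd6b (0.076) and Ccne1 (0.094). Ccne1, which encodes cyclin E1, was at 0.19, 0.96 and 0.51 against 1.52 and 1.71. No member came close to Dusp2, the nearest being Mapk9 at 0.510. With 5 arrays many genes share such a pattern, and the distances are a description only.

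Of 67 other genes of the MAPK pathways, 62 were measured. None passed the adjusted threshold (lowest adjusted p = 0.217), 8 had an unadjusted p below 0.05 (7 higher and 1 lower; 12.9% beside 12.2% of all genes), and 25 lay outside the wild-type range (10 above, 15 below), which is 40.3% beside 33.5% of all genes. Differences were positive for 21 and negative for 41, with a median of -0.11. Under median centring the split turned to 41 higher and 21 lower, and 15 lay outside the range, 13 above and 2 below. The genes named from these lists, up to 4 each, are those with the largest difference among genes well above background on all arrays whose groups did not overlap.

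The other p38 kinases had differences larger in size than that of Mapk14, and none passed the adjusted threshold. The part of other cells, such as B cells, in their values was not tested. Mapk12, p38 gamma, was at -0.71, -1.61 and -1.65 in wild-type cells and 0.13 and 0.80 in c-Jun-deleted cells, 3.46-fold higher (log2 difference 1.79, SE 0.39, adjusted p = 0.248). Mapk11, p38 beta, was at -0.95, -1.23 and -1.40 against -0.10 and 0.27, a difference of 1.28 (SE 0.22, adjusted p = 0.224). Mapk13, p38 delta, went the other way. It was at -2.53, -2.28 and -2.80 against -3.40 and -3.95, a difference of -1.13 (SE 0.26, adjusted p = 0.261) that was -0.49 after normexp. The 3 kept these directions in every setting run, but the sizes moved: that of Mapk12 was 0.85 within slide 1 and 2.43 within slide 2. Nlk, a MAPK of the Wnt and Notch pathways, differed by 0.20, and of the 9 other MAPKs measured 4 were higher and 5 lower (Mapk10 and Mapk15 were not measured).

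Dusp10, which encodes MKP-5, a phosphatase of JNK and p38, had the largest difference of the 62. Its level was -2.85, -2.65 and -3.44 in wild-type cells and -0.78 and -1.05 in c-Jun-deleted cells. The groups were far apart, with the c-Jun-deleted mean 4.19-fold higher (log2 difference 2.07, SE 0.28, adjusted p = 0.217). It was 2.07 within slide 1 and 2.00 within slide 2, and 1.28 after normexp. Median centring was the one setting in which it passed the threshold (2.28, adjusted p = 0.0482), over a range of adjusted p from 0.0482 to 0.772. The authors' deposited table lists it at 2.07 and also lists Mapk11 (1.28), Mapk12 (1.79), Mapk13 (-1.13) and a probe for Dusp8 (1.41). On the probe that stood for Dusp8 here the groups overlapped, with a difference of 0.70 that was -0.015 after normexp. That probe was well above background on only 1 wild-type and 1 c-Jun-deleted array. Dusp4, a nuclear phosphatase of ERK and JNK, was higher by 0.81 and Dusp14 by 0.66, the latter by 0.25 after normexp. Each depended on 1 array: Dusp4 was 0.49 without c-Jun-deleted 1 (1.35 within slide 1 and 0.38 within slide 2), and Dusp14 was 0.32 when c-Jun-deleted 9 was left out, but 1.01 when c-Jun-deleted 1 was. Dusp22 was lower by -0.35. Of the 11 other phosphatases measured, 5 were higher and 6 lower, with a median of -0.06 (Ptpn5 and Ptprr were not measured). The B cell and large peritoneal macrophage markers were higher in c-Jun-deleted samples by medians of 2.51 and 1.16, as Dusp10, Dusp4 and Dusp14 were, and their part in these values was not tested.

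Upstream, 15 of the 18 MAP3Ks had negative differences, with a median of -0.18. Of the 18, 7 lay below the wild-type range and 2 above it, beside 20.2% and 13.3% of all genes, and under median centring 1 lay below and 3 above. Map3k1, a kinase above MKK4 and JNK, was an exception. It was at 4.28, 4.28 and 4.16 in wild-type cells and 4.72 and 5.08 in c-Jun-deleted cells (difference 0.66, SE 0.17, adjusted p = 0.294). Map3k5, or ASK1, which answers oxidative stress, differed by -0.33, Map3k4 by -0.31 and Taok1 by -0.30. Under median centring these became -0.12, -0.10 and -0.09, and the MAP3Ks split into 10 higher and 8 lower. Of the 5 other MAP2Ks, 4 were lower, and Map2k1, which encodes the ERK activator MEK1, was at 3.65, 3.60 and 4.00 against 3.49 and 3.27 (-0.37).

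Scaffolds and activators, such as the JNK-interacting proteins and the TAB and TRAF adaptors, numbered 13, of which 8 were lower and 5 higher. Tab2, an adaptor of the kinase TAK1, was at 3.13, 2.86 and 3.21 against 2.78 and 2.71 (-0.33). Among 6 measured kinases downstream of MAPK, 3 were higher and 3 lower (Mknk2 was not measured). Mknk1, which phosphorylates the translation factor eIF4E, was at 0.25, 0.23 and 0.21 against 0.95 and 0.76, so its wild-type arrays were nearly equal and the c-Jun-deleted arrays both higher (0.62, SE 0.14, adjusted p = 0.256). Mapkapk2, the p38 target that stabilises cytokine messages, was at 4.37, 4.61 and 4.71 against 4.23 and 4.16 (-0.37). Rps6ka4, which encodes the chromatin kinase MSK2, differed by -0.32.

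**Figure D4:**
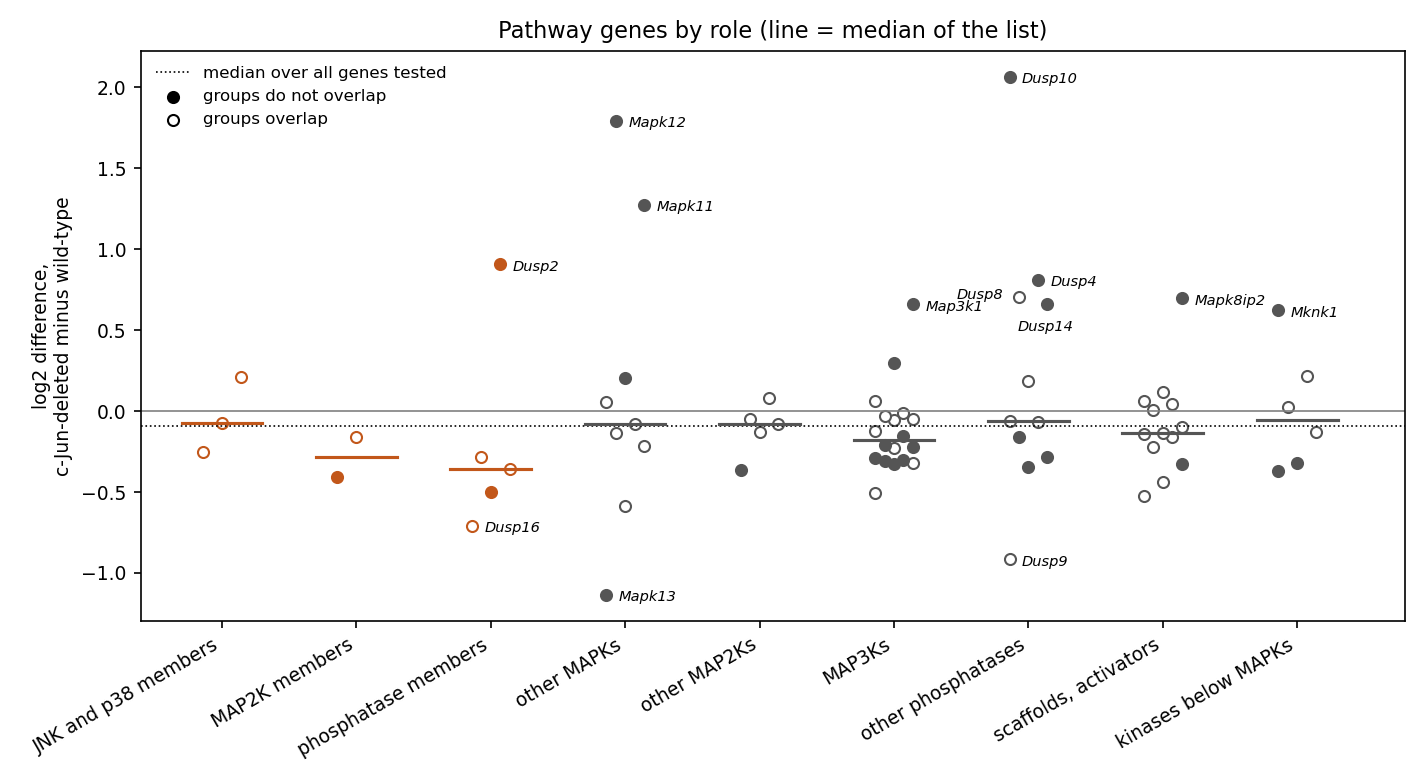
Log2 difference, c-Jun-deleted minus wild-type (vertical axis), of every measured member and pathway gene, grouped by role; orange points are the 10 members, filled points are genes whose groups do not overlap, bars are list medians and the dotted line is the median of all genes tested. Most points lie near the median of all genes, and Dusp10, Mapk12 and Mapk11 lie above 1.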

How the data were processed

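RNA of adherent peritoneal macrophages was column-purified, and 50 ng labelled with Cy3 were hybridised to 1-colour Agilent arrays, per the labels' protocols. The authors' scanner files hold each spot's intensity as written by Feature Extraction 11.5.1.1, per the file headers, background-subtracted and with no scaling between arrays. The deposited table of the whole series holds log2 values as 1 mean per group for 1709 probes; its baseline stays unknown (column medians 0.54 and 1.19), so its 2 columns were only subtracted from each other, and the result matched the scanner files within 0.001 for 1692 probes. It names 4 arrays over the wild-type column, and 1 of these is not used here.

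Log2 of the processed signal minus log2 of each array's 75th percentile was compared between 3 wild-type and 2 c-Jun-deleted samples, grouped by title and genotype. The test was limma 3.58.1 in R 4.3.3 (functions lmFit and eBayes), 2-sided and without covariates. Benjamini-Hochberg adjustment ran over all 27938 genes, threshold 0.05. These functions were tried on simulated data with changes larger than that of any member, so the trial does not cover differences of the members' size. Control spots and outlier flags were left out, probes were kept if at least 2 of 5 arrays had them well above background (32821, of which 256 dropped out for a flagged spot), and the brightest probe stood for a gene. All 16 member probes passed this filter. Symbols came from RefSeq tables of assembly GRCm38.p6 by transcript accession, for 28026 probes; the arrays were designed on mm9, so probe coordinates are not given. Replicate numbers are not shared between the groups and pair nothing. Source names number the mice; if samples were not separate animals, the p-values speak only of the spread between these samples, which may be technical. With 3 arrays against 2 no exact permutation test can go below 0.1, and none was made.

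The members and lists were chosen with earlier results of these data known. All members with every probe, Jun and the closest genes in pattern are named. So are up to 4 genes per pathway list, by size of difference among those well above background on all arrays without overlap. The markers Pax5, Cd2, Gata6, Timd4, Selp, Msln, Krt8, Krt18, Krt19, Xist and Lyz2 and the Dusp8 probes are named besides. Marker sums without Lyz2 or Cd2 were chosen after the values were seen. Alternatives were normexp (offset 50; run on the median rather than the mean spot signal, which is the column used here), quantile normalization, median centring, other filters and probe rules, array weights, slide as a block, values within a slide, kept flagged spots and leaving out each array.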

Additional observations from a re-analysis of the deposited data

How the results depend on the processing

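None of the 10 members passed the adjusted threshold in any of the 16 alternatives that allowed a test; their lowest adjusted p lay between 0.160 (array weights) and 0.820 (within slide 2), that of Dusp2 in each but 1 (Dusp1 without c-Jun-deleted 9). Over all genes the count past the threshold was 187 with median centring, 1 with array weights and 0 in the others. Dusp1, Dusp2, Dusp6, Dusp16, Map2k4 and Mapk14 kept their direction in all 17 alternatives. The difference of Mapk8 turned to -0.034 with normexp, -0.45 as the mean over its probes and -0.085 within slide 1, and that of Mapk9 to 0.050 with normexp, 0.14 with median centring and 0.080 within slide 1. Map2k7 turned to 0.051 with median centring, Dusp5 to 0.013 within slide 1, and Map3k5 to 0.10 as the mean over probes. Leaving out 1 array gave -0.073 to 0.50 for Mapk8, -0.14 to 0.0017 for Mapk9 and -0.48 to 0.093 for Dusp5; it gave 1688 to 4505 genes at an unadjusted p below 0.05, 12289 to 17014 genes outside the wild-type range and 3 to 8 members outside it. Within slide 2, where the lone c-Jun-deleted array was taken to vary as the wild-type arrays do, these counts were 1836, 19667 and 8, and with the mean over probes 7 members lay outside the range. The causes of these changes were not tested. Of the genes at an unadjusted p below 0.05, 46.3% were higher in c-Jun-deleted cells, 62.0% with quantile normalization and 79.0% with median centring. Slide 1 has 1 array a group and gives values with no test. No paired analysis was possible because the groups share no replicate number. Dim probes (Mapk8, Dusp5, the second probe of Dusp16) are limited by signal over background.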
